A study of Mus musculus with 9 samples.

Results

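The genes of MHC class II antigen presentation were followed in RNA from single capillaries of the mouse ossification front (OF), the zone of new bone beneath the growth plate of the femur. The 10 genes are Cd74, H2-Aa, H2-Ab1, H2-Eb1, H2-DMa, H2-DMb1, H2-DMb2, H2-Oa, H2-Ob and Ciita, out of 39179 genes listed in each library. They were chosen by their function and on the measured difference between the ages in these same libraries, so their difference between the ages, calls included, is given as a description and supports nothing. Capillaries with the cells around them were cut by laser microdissection from frozen femur sections of juvenile mice aged 4 weeks (n = 5 libraries) and adult mice aged 12 weeks (n = 4 libraries). All mice of both ages carried a GFP reporter under the endothelial Tie2 promoter, Tg(TIE2GFP)287Sato/J, which was used to find the vessels under the microscope, and the labels give their origin as C57BL/6. No treatment or deletion is given for either age. Each library was made from a pool of microdissected pieces that held endothelial and perivascular cells, and the labels name no animal for a library, so the spread between libraries may be in part technical.

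MHC class II molecules are heterodimers of an alpha and a beta chain that hold peptides from endocytosed proteins at the cell surface for CD4 T cells. CD74, the invariant chain, binds the new heterodimer, blocks its groove and guides it to endosomes, where it is cut down to the fragment CLIP. H2-DM, made of H2-DMa with H2-DMb1 or H2-DMb2, exchanges CLIP for peptide, and H2-O, made of H2-Oa and H2-Ob, restrains H2-DM. CIITA is the coactivator that is recruited to class II promoters by factors bound at their X and Y boxes, RFX at the X box and NF-Y at the Y box. B cells, dendritic cells and activated macrophages carry these molecules constitutively or after interferon gamma, and some endothelial and stromal cells can be brought to do so. In mice of the H2-b haplotype, which C57BL/6 mice carry, the H2-E alpha gene is a pseudogene, H2-Ea-ps, and no H2-E heterodimer is made. The haplotype of the mice used here was not checked.

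The promoters of the class II genes share the X and Y boxes, and the sequences of 4 of them are shown. In 3 of these both boxes were matched. That of H2-Aa, shown for comparison, had no X box match with at most 2 mismatches. RefSeq promoter windows of GRCm38.p6, from 250 bases before the gene start to 50 bases after it, were given for 7 of the 10 members. H2-Ab1, Cd74 and Ciita had no window. The 7 members had 8 windows, since H2-DMa was given a further one. The Y box, searched as GATTGG on both strands, was found in 16.1% of all 32851 windows. It was in 7 of 8 member windows, from 7 of 7 members. The X box, a consensus of 14 letters, was searched on both strands and allowed to overlap the Y box. With at most 3 mismatches it was found in 52.8% of all windows and in 7 of 8 member windows, from 7 of 7 members. H2-DMa had its X box in a window without a Y box. Its Y box was in the other window, where the best X box had 4 mismatches. With at most 2 mismatches the X box was found in 8.47% of all windows and in 4 of 8 member windows, from 4 of 7 members. An X box followed by a Y box 10 to 30 bases further on the strand of the gene was found in 89 windows (0.271%), among them those of H2-DMb1, H2-DMb2, H2-Ob and H2-Eb1. This spacing was chosen after the member sequences had been seen, and a match is a description of the letters, not of binding. The 150 bases before the RefSeq start are shown 5′ to 3′ on the strand of each gene, with the X box (at most 2 mismatches) and the Y box of either strand in capitals. H2-DMb2 lies at chr17:34145099-34145248 on the plus strand, H2-Ob at chr17:34238755-34238904 on the plus strand, H2-Eb1 at chr17:34305717-34305866 on the plus strand and H2-Aa at chr17:34287824-34287973 on the minus strand.
H2-DMb2: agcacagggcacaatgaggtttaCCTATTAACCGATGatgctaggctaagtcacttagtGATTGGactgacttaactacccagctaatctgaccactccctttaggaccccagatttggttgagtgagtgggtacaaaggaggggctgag
H2-Ob: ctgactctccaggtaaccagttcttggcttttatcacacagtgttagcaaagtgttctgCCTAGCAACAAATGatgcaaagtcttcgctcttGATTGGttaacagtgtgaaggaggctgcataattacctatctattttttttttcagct
H2-Eb1: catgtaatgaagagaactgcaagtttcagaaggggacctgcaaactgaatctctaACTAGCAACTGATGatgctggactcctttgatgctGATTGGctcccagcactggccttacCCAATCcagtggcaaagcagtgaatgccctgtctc
H2-Aa: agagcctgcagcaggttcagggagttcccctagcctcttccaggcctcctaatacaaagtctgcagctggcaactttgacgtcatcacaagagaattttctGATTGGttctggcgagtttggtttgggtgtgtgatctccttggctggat

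In the first 3 of these sequences 1 base of the X box departed from the consensus, and 22, 19 and 21 bases lay between the X and the Y box. H2-DMb1 had an X box without a mismatch and the same 22 bases between the boxes as H2-DMb2. Its sequence is not shown because the GENCODE annotation counts 119 of these 150 bases to the first exon. H2-Aa had the Y box but no X box with at most 2 mismatches in its window. An X box that departs further from the consensus is missed at this limit, so the lack of an X box in H2-Aa is not shown. Members with both boxes at this spacing included H2-Eb1 and H2-Ob, which were near 0 in most libraries, as well as H2-DMb1, which was detected in all 9. Since H2-Ab1 and Cd74 had no window, the boxes cannot be set against their levels, and a link between boxes and levels was not tested.

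The libraries held 4856833 to 7398483 counts in the juveniles and 5821596 to 8077362 in the adults. CPM below are counts divided by the TMM-scaled library size and given on the usual CPM scale. The floor, set at 3 counts, was 0.347 to 0.638 CPM and covers counting error only. Of 13418 genes tested with edgeR's quasi-likelihood test, 253 were called higher in the adult (1.89%) and 267 higher in the juvenile (1.99%) at an adjusted p under 0.05. In 548 genes (4.08%) the adult libraries all lay above the juvenile ones. Juvenile libraries 4 and 5 had Y-linked counts and the other 7 had at most 1, so sex was not balanced over the ages. Calls that the fit without these 2 libraries moved are given beside the region and the marker lists. The labelled endothelial cells were represented in each library, with summed CPM of 10 endothelial markers of 662 to 1009 in the juveniles and 779 to 959 in the adults. Transcripts of osteoblasts were far more abundant, with a summed CPM of 8 markers of at least 61180, so the pieces were mixed tissue. In such bulk libraries, fewer cells of a type and less RNA per cell cannot be told apart.

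The invariant chain and the H2-A chains were higher in the adult, by 5.89 to 7.56 times in the means, and no juvenile library reached the lowest adult one. Of the 10 members, 7 passed the filter on low counts. Cd74, H2-Aa and H2-Ab1 were called higher in the adult and none was called lower. Since the members were chosen on this contrast, nothing is read from these 3 calls against the background share of 1.89%. H2-Eb1, H2-Oa and H2-Ob did not pass the filter and were not tested.

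Cd74 was the most abundant member in every library. Its level was 196.3, 217.7, 295.8, 205.2 and 149.9 CPM in juvenile libraries 1 to 5, and 1399, 972.3, 1454 and 1191 CPM in adult libraries 1 to 4. The adult libraries all stood above the juvenile ones, and the lowest adult level was 3.29 times the highest juvenile level. Means were 213 ± 52.9 CPM (SD, n = 5) and 1254 ± 219 CPM (SD, n = 4), a log2 fold change, adult over juvenile, of 2.56 ± 0.21 (SE). The gene, ENSMUSG00000024610, lies on chromosome 18 from 60803848 to 60812652 on the plus strand of GRCm38.

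H2-Aa encodes the alpha chain and H2-Ab1 the beta chain of the class II heterodimer H2-A. For H2-Aa the juvenile libraries had 33.7, 18.4, 33.4, 25.3 and 28.0 CPM, and the adult ones 227, 134.8, 243.2 and 235.2 CPM. For H2-Ab1 they had 41.2, 27.8, 53.4, 46.4 and 49.8 CPM, and 325.8, 181, 341.5 and 271.2 CPM. In both genes the ages did not overlap, juvenile 2 was the lowest juvenile library and adult 2 the lowest adult library. The log2 fold change was 2.92 ± 0.25 (SE) for H2-Aa, from means of 27.8 ± 6.33 and 210 ± 50.6 CPM (SD). It was 2.68 ± 0.24 (SE) for H2-Ab1, from means of 43.7 ± 9.98 and 279.9 ± 72.5 CPM (SD). The SEs of the 3 changes overlapped.

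H2-Eb1, the beta chain of H2-E, was close to the limit of detection. Its counts were 0, 4, 4, 0 and 1 in the juvenile libraries and 29, 0, 91 and 48 in the adult ones. In 3 of 4 adult libraries it was above every juvenile library, and in adult 2, in which H2-Aa and H2-Ab1 were also lowest, it was not detected. Its means were 0.328 ± 0.376 and 5.16 ± 4.76 CPM (SD), and without the filter its log2 fold change was 3.92 ± 1.53 (SE). Even in adult 3, where it was highest, it stood at 0.0436 of the H2-Ab1 level per kb. H2-Ea-ps, the alpha chain pseudogene, had no count in the 5 juvenile libraries and 0, 7, 68 and 10 counts in the adult ones, with the highest value again in adult 3. The other beta chain gene of the region, H2-Eb2, had no count in any library.

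**Figure D1:**
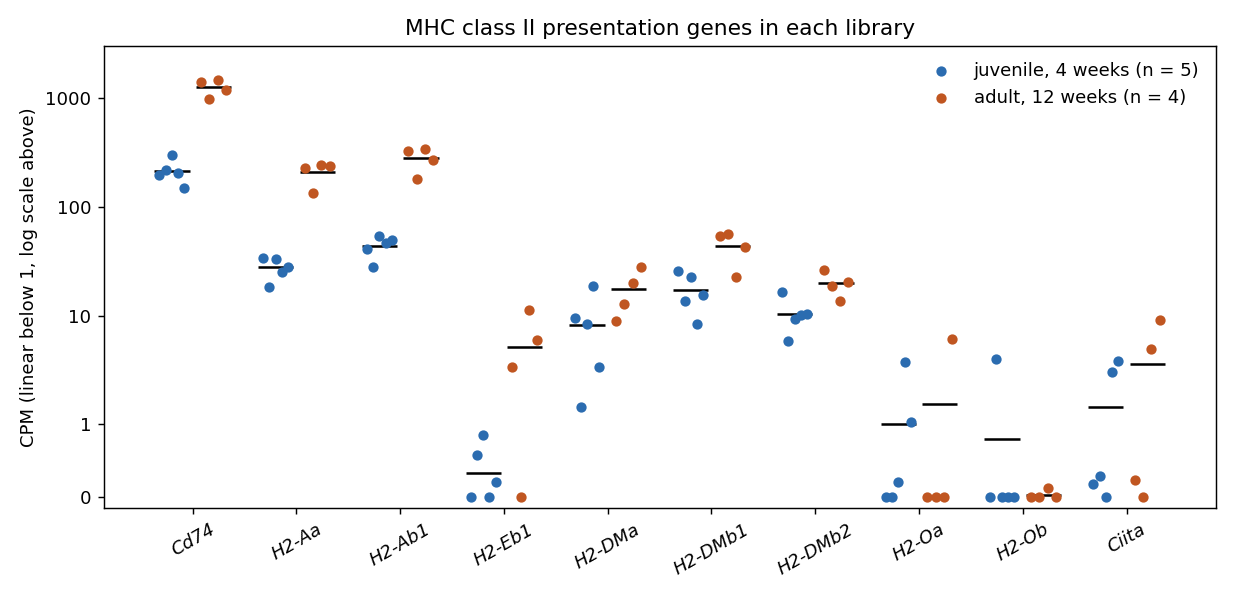
Level of each of the 10 genes in CPM (linear below 1, log scale above) in the 5 juvenile (blue) and 4 adult (orange) libraries, with a black line at the mean of each age. Cd74, H2-Aa and H2-Ab1 form groups that do not overlap between the ages, with Cd74 from 149.9 to 295.8 CPM in the juveniles and from 972.3 to 1454 CPM in the adults, while the other 7 genes overlap.

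The genes of the peptide exchange factor H2-DM were detected in all 9 libraries and overlapped between the ages. H2-DMb1 had 25.7, 13.7, 22.6, 8.45 and 15.5 CPM in the juvenile libraries and 54.3, 56.1, 22.8 and 43.0 CPM in the adult ones. In this gene 3 of 4 adult libraries lay above every juvenile one, and adult 3, which was highest for Cd74, H2-Aa and H2-Ab1, was the lowest. H2-DMb2 had 16.3, 5.91, 9.36, 10.1 and 10.4 CPM in the juveniles and 26.2, 18.5, 13.6 and 20.6 CPM in the adults. Here again adult 3 was the lowest adult library, below juvenile 1. H2-DMa, the alpha chain that both beta chains need, had 9.43, 1.44, 8.30, 18.6 and 3.39 CPM in the juveniles and 9.02, 12.7, 20.04 and 27.8 CPM in the adults. Its juvenile libraries alone spanned 1.44 to 18.6 CPM.

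On the log2 scale the change, adult over juvenile, was 1.36 ± 0.40 (SE) for H2-DMb1, 0.92 ± 0.46 for H2-DMb2 and 1.08 ± 0.69 for H2-DMa. These values were all below the 2.56 to 2.92 of Cd74 and the H2-A chains. None of the 3 was called in the edgeR fit, and H2-DMb1 was called with DESeq2 and without adult replicate 3, at log2 fold changes of 1.38 and 1.59. The beta chain genes are close relatives. They share 254 stretches of 75 bases, the read length, which is 15.8% of those of H2-DMb1 and 14.6% of those of H2-DMb2, so a part of their reads could not be assigned to either by sequence alone. The share of H2-DMb2 in the counts of both was 29.3% to 54.5% in the juveniles and 24.8% to 37.4% in the adults. Exons of H2-DMa overlapped those of Brd2 on the opposite strand over 360 bases (10.4% of the exon length), and without a known strand setting reads of these bases cannot be told apart.

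The subunits of H2-O, the brake on H2-DM, were detected in few libraries. H2-Oa had 0, 0, 1, 20 and 5 counts in the juveniles and 0, 0, 0 and 49 in the adults. H2-Ob had 0, 28, 0, 0 and 0 counts, and 0, 0, 1 and 0. The libraries with the 2 subunits were thus different ones, juvenile 4, juvenile 5 and adult 4 above the floor for H2-Oa and juvenile 2 for H2-Ob, and no library had counts of both. Juvenile 2 was also the library with the highest counts of the B cell markers Ms4a1 (91) and Cd22 (72), and adult 4 had 8 and 3 of these. A difference between the ages was not detectable at this depth for either gene.

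Ciita, the coactivator, was low as well, with 1, 2, 0, 16 and 18 counts in the juvenile libraries and 2, 0, 40 and 73 in the adult ones. The highest values were in adult 4 and adult 3, but adult 1 and adult 2 were below juvenile 4 and 5, so the ages overlapped. Its means were 1.46 ± 1.81 and 3.58 ± 4.35 CPM (SD), and the log2 fold change was 1.30 ± 1.45 (SE). Adult 1 and adult 2, with 2 and 0 counts of Ciita, had 325.8 and 181 CPM of H2-Ab1. In the juveniles the 2 libraries with 16 and 18 counts had 46.4 and 49.8 CPM of H2-Ab1, and juvenile 3, with no count, had 53.4 CPM. The order of the libraries by Ciita was thus not their order by H2-Ab1. Its exons shared 329 bases with Dexi on the other strand.

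Levels of different genes were compared as CPM per kb of annotated exon. In the adult the order was Cd74 (746.9 ± 130.7, SD), H2-Ab1 (109.0 ± 28.2), H2-Aa (55.3 ± 13.3), H2-DMb1 (26.2 ± 9.12), H2-DMb2 (11.3 ± 2.99), H2-DMa (5.04 ± 2.41), H2-Eb1 (2.65 ± 2.45), H2-Oa (1.09 ± 2.18), Ciita (0.376 ± 0.457) and H2-Ob (0.00575 ± 0.0115). From H2-DMa downwards each neighbour lay within the spread of the next, and the steps above it were larger than the SDs of both. In the juvenile, Cd74 (126.8 ± 31.5) and H2-Ab1 (17.02 ± 3.89) again came first. H2-DMb1 (10.2 ± 4.14) then stood above H2-Aa (7.31 ± 1.67), in 4 of 5 libraries, and the order of these 2 was not separated by their spread. H2-DMb2 (5.97 ± 2.15), H2-DMa (2.39 ± 1.94) and the remaining 4 members, all under 1, followed. By this level Cd74 ranked 366 among all genes in the juvenile and 59 in the adult, H2-Ab1 went from rank 2713 to 478 and H2-Aa from 5522 to 913. Exon length sums all annotated transcripts, so that the level of a gene with long rare isoforms is understated.

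Within single libraries the chains of H2-A kept a narrow ratio. H2-Aa stood at 0.370 to 0.554 of the level of H2-Ab1 per kb in the juvenile libraries and at 0.471 to 0.586 in the adult ones, and these ranges overlapped. Cd74 stood at 4.601 to 11.97 times H2-Ab1 in the juveniles and at 6.52 to 8.22 times in the adults, which overlapped too. The beta chains of H2-DM together stood at 0.600 to 1.54 of H2-Ab1 in the juveniles but at 0.160 to 0.624 in the adults, where adult 2 alone reached the juvenile range. For H2-DMa these values were 0.0386 to 0.299 and 0.0206 to 0.0764. The H2-A chains and their chaperone were higher by similar factors in the adult. The H2-DM ratios were lower in the adult than in most juvenile libraries, and the ages overlapped in both. H2-Ab1 was chosen on this contrast, and any gene that changed less falls relative to it, so nothing is read from the lower ratios. Cd74, H2-Aa and H2-Ab1 together made up 0.0215% to 0.0370% of the raw counts of a library in the juveniles and 0.133% to 0.212% in the adults.

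**Figure D2:**
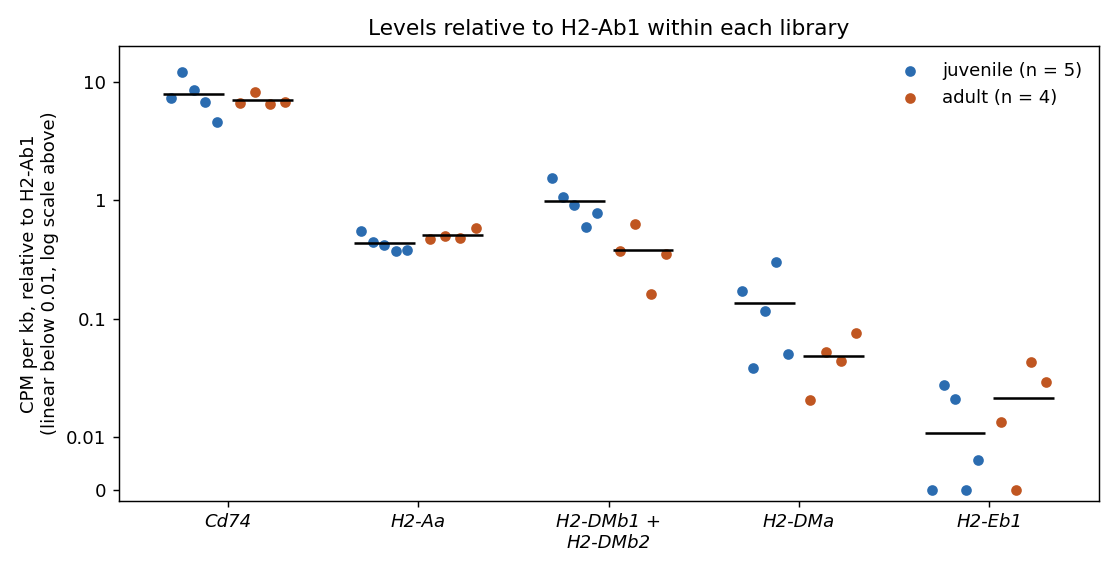
Level per kb of 5 class II genes or gene pairs divided by that of H2-Ab1 in the same library (linear below 0.01, log scale above), for 5 juvenile (blue) and 4 adult (orange) libraries, with lines at the means. Cd74 and H2-Aa overlap between the ages, and the summed H2-DMb1 and H2-DMb2 reach 1.54 in the juveniles and 0.624 in the adults.

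Genes that work with class II molecules were taken from 6 lists of 45 genes, of which 36 were tested. In edgeR's quasi-likelihood test none was called after adjustment, 13 had an unadjusted p under 0.05, DESeq2 called 7 of 43 and limma voom 1. Over all genes, 17.3% had an unadjusted p under 0.05 in edgeR, and edgeR, DESeq2 and limma voom called 3.88%, 7.15% and 3.43%. Their median log2 fold change, juvenile over adult, was -0.21, beside -0.007 over all genes tested. Of the transcription factors, Rfx5, the subunit of RFX that gives it its name, had means of 19.4 and 20.6 CPM, a log2 change of 0.08 ± 0.42 (SE). Rfxank and Rfxap, its partners, had changes of -0.10 ± 0.40 and -0.27 ± 0.30. For NF-Y the changes were 1.21 ± 0.58 for Nfya, 0.25 ± 0.57 for Nfyb and 0.04 ± 0.33 for Nfyc. Spi1, which encodes the myeloid and B cell factor PU.1, had means of 47.8 and 96.0 CPM, and was called with DESeq2 and limma voom but not with edgeR (adjusted p = 0.0857). Irf4, an interferon regulatory factor of B cells and dendritic cells, had no count in the juveniles and 30, 6, 5 and 34 counts in the adults.

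Among the proteins that prepare peptides and cut CD74, Ctss, the protease of the last cuts in professional antigen-presenting cells, had 174, 44, 11, 29 and 18 counts in the juveniles and 573, 1, 565 and 411 in the adults. Adult 2, with 1 count, thus lay below every juvenile library for this gene. Ctsl, which takes this role in other cells, had means of 204 and 118.6 CPM, a log2 change of -0.78 ± 0.28 (SE). Sppl2a, which clears the last membrane stub of CD74, had means of 180 and 103.3 CPM, a change of -0.80 ± 0.23, and was called lower in the adult with DESeq2 (edgeR adjusted p = 0.0777). Cst3, an inhibitor of these proteases, had 1894 and 2754 CPM (edgeR adjusted p = 0.0786). Of the 8 genes of this list, edgeR called 0, with 4 at an unadjusted p under 0.05, DESeq2 called 2 and limma voom 0.

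March1, the ubiquitin ligase that removes class II molecules from the surface of dendritic cells and B cells, had no count in the juveniles and 0, 0, 13 and 55 in the adults. Cd83, which opposes it, had means of 20.2 and 42.0 CPM, a log2 change of 1.05 ± 0.39 (SE). The costimulatory genes gave values in both directions. Cd86 had 4 counts in juvenile 3 and 0 in the other juveniles, and 205, 0, 30 and 59 in the adults. Cd80 had 1, 6, 2, 0 and 0 counts in the juveniles and 0 in every adult library, and Pdcd1lg2 had 3 counts in juvenile 3 and 0 elsewhere. Cd40 had means of 24.4 and 12.1 CPM. Of 4 tested genes of this list, none was called by edgeR or limma voom, 1 had an unadjusted p under 0.05 and DESeq2 called Cd86 among 9.

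CD74 at the cell surface is also a receptor for MIF, with CD44 and the chemokine receptors CXCR2 and CXCR4. Mif had means of 85.9 and 124.8 CPM, a log2 change of 0.54 ± 0.18 (SE), and Cd44 of 188.3 and 243.5 CPM. Cxcr4 had 10, 10, 7, 3 and 7 counts in the juveniles and 146, 4, 167 and 130 in the adults, again with adult 2 at the juvenile level. Neither this list of 5 nor the 7 tested genes of the interferon gamma axis had a call in edgeR or limma voom, with 2 of 5 and 4 of 7 at an unadjusted p under 0.05 in edgeR, beside 17.3% of all genes, and DESeq2 called 2 and 0. Interferon gamma, which induces Ciita in many cells, had no count for its gene Ifng in any library, and its receptor gene Ifngr1 had means of 128.7 and 118.2 CPM. Downstream of the receptor, Irf1 had 76.4 and 61.7 CPM, and Gbp2 3.50 and 11.1 CPM. Nlrc5, the relative of CIITA that acts on class I genes, had 11.9 and 26.3 CPM, a log2 change of 1.15 ± 0.45 (SE). Jak2, a kinase of the receptor, had 54.0 and 23.2 CPM, a change of -1.22 ± 0.46, and Socs1, its feedback inhibitor, had 33.7 and 14.8 CPM, a change of -1.19 ± 0.49, with all juvenile libraries above all adult ones. Neither was called (edgeR adjusted p = 0.179 and 0.219).

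The H2 members lie together on chromosome 17 of GRCm38, from the start of H2-Oa at 34092340 to the end of H2-Eb1 at 34316674, a span of 224335 bases with 8 of the 10 members. H2-Ab1 spans 34257689 to 34269419 on the plus strand and H2-Aa 34282744 to 34287823 on the minus strand. Position was not used in the choice of members, so the other genes of this span were tested. Of 12, 9 were in the count tables and 7 were tested. Psmb9, a catalytic subunit of the immunoproteasome, and Tap1, a subunit of the transporter that brings peptides to class I molecules, were called higher in the adult, and none was called lower. Over all genes tested, 1.89% were called higher in the adult and 1.99% higher in the juvenile. An unadjusted p under 0.05 in edgeR was seen in 5 of these 7 genes, beside 17.3% of all genes. Among the 5, Brd2 was lower in the adult. Gm20496, also among them, shared 75.1% of its exon length with Psmb8 and 24.9% with Tap2, on the opposite strand. It may therefore hold reads of these genes, and the 5 are not separate observations. Psmb9 had 1.99, 9.65, 15.3, 9.01 and 9.11 CPM in the juveniles and 21.9, 24.7, 48.3 and 56.1 CPM in the adults, a log2 change of 2.07 ± 0.53 (SE, edgeR adjusted p = 0.0477). For Tap1 the levels were 21.2, 18.2, 32.6, 20.5 and 19.9 CPM and 68.4, 39.1, 57.0 and 63.8 CPM, a change of 1.35 ± 0.29 (SE, edgeR adjusted p = 0.0217). In both genes all adult libraries lay above the juvenile ones, as in 4.08% of all genes tested.

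Psmb8 and Tap2, their partners next to them, had changes of 0.92 ± 0.28 and 0.41 ± 0.31 (SE) and overlapped between the ages. Brd2, a bromodomain gene between H2-Oa and H2-DMa, was lower in every adult library than in any juvenile one, at 143.1 against 198.1 CPM, and was not called (edgeR adjusted p = 0.133). The calls of Psmb9 and Tap1 were near the threshold. Over 19 alternative fits Psmb9 was called in 9 and Tap1 in 13, with log2 changes of 1.81 to 2.34 and 1.25 to 1.52. Neither was called with the replicate number as a block, without juvenile 4 and 5 together, or without juvenile 2, juvenile 4, juvenile 5 or adult 4 alone. The 2 genes overlap by 212 bases on opposite strands.

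**Figure D3:**
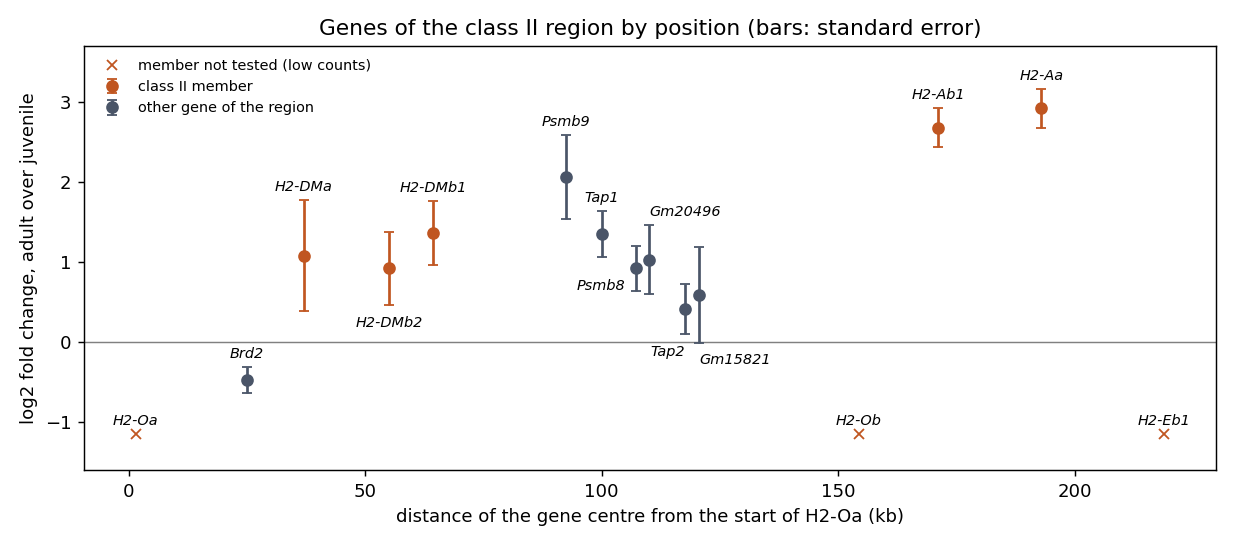
Log2 fold change, adult over juvenile, with its standard error (vertical bars) against the distance in kb of the gene centre from the start of H2-Oa, for class II members (orange) and the 7 other tested genes (grey). H2-Ab1 and H2-Aa are highest at 2.68 and 2.92, Psmb9 stands at 2.07, Brd2 is below 0, and crosses mark H2-Oa, H2-Ob and H2-Eb1, which were not tested.

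Markers of the cells that usually carry class II molecules were read in the same libraries, from lists drawn up with earlier results of these data known. The 12 macrophage markers summed to 559 to 845 CPM in the juveniles and 1019 to 1725 in the adults. Most of each sum came from Csf1r and Cd68, so it says little of the other markers. These 2 genes had 381.1 and 419.7 of 845 CPM in juvenile 1, and 631.9 and 369.9 of 1019 CPM in adult 2. Of 9 tested, 6 had an unadjusted p under 0.05 in edgeR, beside 17.3% of all genes. After adjustment edgeR called 1 higher in the adult, beside 1.89% of all genes, DESeq2 3 of 11 and limma voom 1. The edgeR call was Csf1r, the receptor that macrophages and osteoclast precursors need, at 323.8 against 662.0 CPM (log2 change 1.03 ± 0.16, SE). Mertk went the other way, at 41.2 against 19.65 CPM (log2 change -1.07 ± 0.41, SE). All its juvenile libraries lay above all adult ones, and it was not called (edgeR adjusted p = 0.183). C1qa, a complement gene of resident macrophages, had 4, 0, 5, 48 and 0 counts in the juveniles and 923, 1, 262 and 580 in the adults. Vsig4 was at 0 in every library, and Timd4 in all but adult 4. Among 3 tested monocyte markers Ly6c2 was called higher in the adult (log2 change 5.68 ± 1.18, SE), and the 6 markers summed to 7.32 to 22.3 and 45.8 to 200.7 CPM.

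The 10 B cell markers summed to 0.636 to 39.2 CPM in the juveniles and 1.34 to 133.9 in the adults. None of 4 tested was called by edgeR or limma voom, 2 had an unadjusted p under 0.05, and DESeq2 called 2 of 9. The 10 dendritic cell markers overlapped, with sums of 77.1 to 120.3 and 74.5 to 102.1 CPM, no call by edgeR or limma voom among 5 and none at an unadjusted p under 0.05 in edgeR, and 1 call by DESeq2. Their defining members were sparse. Cd209a was at 0 in all juvenile libraries, and Clec9a had at most 1 count there and 37, 62, 0 and 3 in the adults. T cell markers summed to 4.17 to 15.3 and 17.3 to 41.4 CPM, with no call by edgeR or limma voom among 2, none at an unadjusted p under 0.05 in edgeR, and 1 by DESeq2. For the 10 endothelial markers none of the 3 tools made a call, and none had an unadjusted p under 0.05 in edgeR.

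Markers of blood cells of the marrow were called as well. Beside them, edgeR called 1.89% of all genes tested higher in the adult and 1.99% higher in the juvenile, and limma voom called 3.43%. Of 8 neutrophil markers edgeR called 7 and limma voom 1, with sums of 18.1 to 72.1 CPM in the juveniles and 102.2 to 4314 in the adults. Of 7 erythroid markers edgeR called all 7, 1 with the replicate number as a block and 0 without juvenile 4 and 5, with sums of 415.9 to 2555 and 4634 to 36770 CPM. Of 7 osteoclast markers edgeR called Acp5 and Atp6v0d2 higher in the adult. Of 8 osteoblast markers Bglap and Bglap2 were called higher in the adult and Col1a1, Col1a2, Ibsp and Sp7 higher in the juvenile. Bglap, Bglap2 and Sp7 were not called without juvenile 4 and 5, and Ibsp and Sp7 not with the block. Of 7 markers of adipogenic marrow stroma, Cxcl12 was called higher in the adult (log2 change 2.59 ± 0.37, SE) and Lepr lower (-1.84 ± 0.27), Cebpa had a change of 0.18 ± 0.77, and only Lepr was called with the block or without juvenile 4 and 5. Neutrophil calls went from 7 to 5 in both of these fits. With the block or without juvenile 4 and 5, no monocyte or osteoclast marker was called, while Csf1r was. The part of these cells in the class II levels was not tested.

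The library adult 2 differed from the other adult libraries in several of these lists. In it 8 of 10 B cell markers and 7 of 12 macrophage markers were at 0, against 1 to 3 and 1 to 2 in the other adult libraries. Its counts were 1 for C1qa, 54 for C1qb and 7 for Cd79a, and 3784 for Csf1r and 2215 for Cd68, and its neutrophil and B cell sums of 102.2 and 1.34 CPM were the lowest of the adults. The dendritic cell, T cell and monocyte markers were mixed in it. It had 62 counts of Clec9a, 60 of Siglech, 17 of Cd209a, 138 of Lck, 68 of Ly6c2 and 203 of F13a1. From the same lists, Cd3d had 1 count, against 104, 58 and 74 in adult 1, 3 and 4. Cd3g had 1 count and Ms4a6c 3, and Cd3e, Cd2, Ccr2, Fcnb, Ms4a4c, Batf3 and Ccr7 had 0. The monocyte sum of 45.8 CPM was the lowest of the adults. In this library Cd74 was at 972.3, H2-Ab1 at 181 and H2-Aa at 134.8 CPM, each the lowest of the adult levels and at least 3.29 times the highest juvenile level. With adult 2 left out, the same 3 members were called, and the calls among macrophage markers went from 1 to 5 and among B cell markers from 0 to 2.

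**Figure D4:**
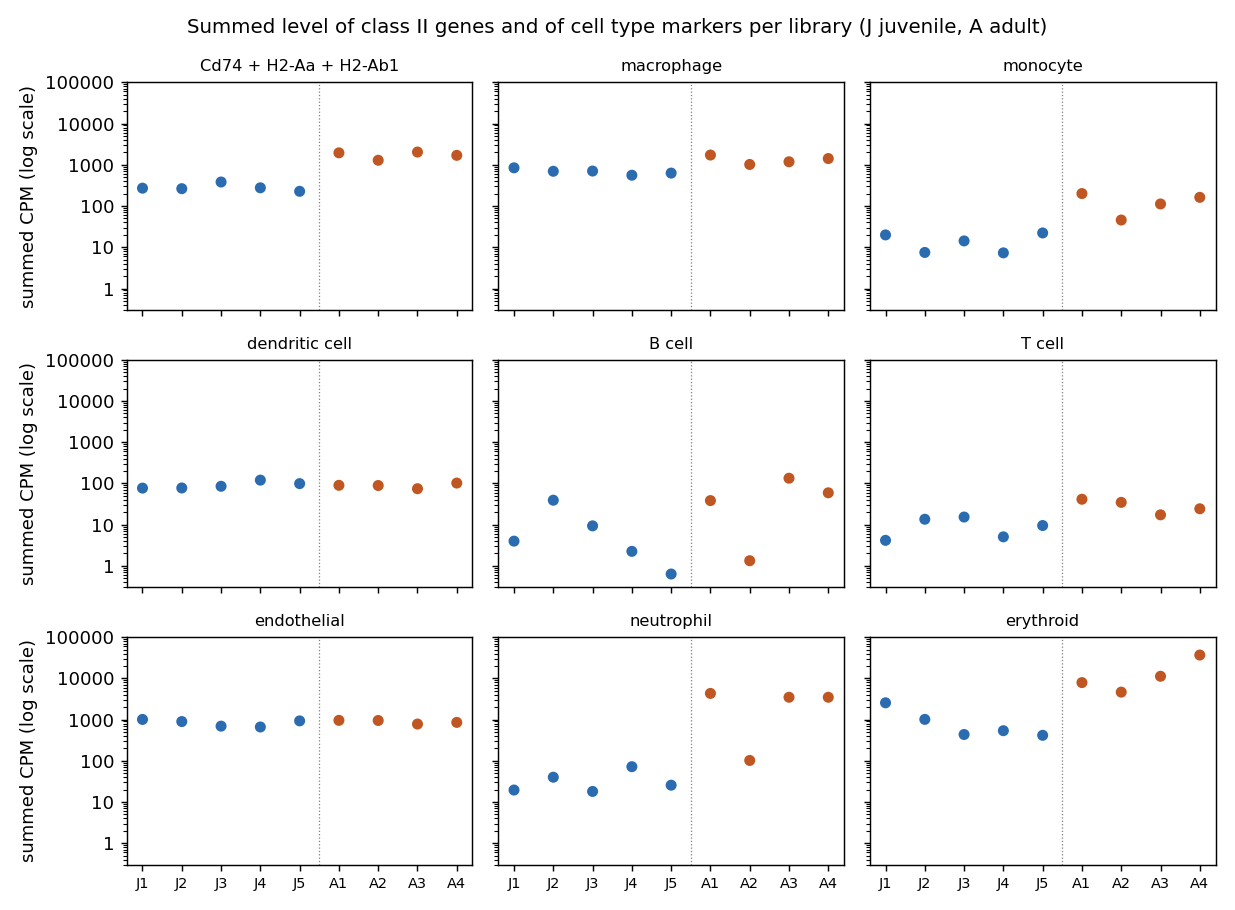
Summed CPM (log scale, the same in each panel) of Cd74, H2-Aa and H2-Ab1 and of 8 lists of cell type markers in juvenile libraries 1 to 5 (J, blue) and adult libraries 1 to 4 (A, orange). The class II sum is 227.6 to 382.6 CPM in the juveniles and 1288 to 2039 CPM in the adults, whereas the B cell sum of adult 2 is 1.34 CPM and the dendritic cell and endothelial sums overlap between the ages.

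The genes whose pattern over the 9 libraries was most like that of the class II chains were found by the SD of the log2 ratio of a gene to the mean of Cd74, H2-Aa, H2-Ab1 and H2-Eb1, which is 0 for a gene that keeps a fixed ratio. This was computed for 8444 tested genes, with a median of 1.59. Cxcl12, the chemokine of marrow stromal cells, came first with 0.33, close to H2-Ab1 (0.36), H2-Aa (0.38) and Cd74 (0.40) themselves. Lepr, another gene of the same stroma, went the other way, as given above. Apoe, a lipid carrier made by macrophages and stroma, followed with 0.47 and Ltc4s, an enzyme of leukotriene synthesis, with 0.52. Il12a (0.60), Bglap2 (0.61), Nmb (0.63), Gstt2 (0.66), Ccnb1 (0.67), Pla2g7 (0.67) and Gclm (0.67) completed the 10. H2-Eb1 had 0.98, H2-DMb1 1.10, H2-DMb2 1.15, H2-DMa 1.27 and H2-Oa 2.46. The 10 genes were picked as the lowest by this measure, among genes with a mean normalized count of at least 100. The members were not held to this limit, so nothing is read from the higher values of the other H2 members. Cd74, H2-Aa, H2-Ab1 and H2-Eb1 are part of the mean, which lowers their own SD. H2-Eb1 had 0 counts in adult 2, which lowers the mean there and favours genes that are low in adult 2. In adult 2, the lowest adult library for each, Cxcl12 was at 1.27 times its highest juvenile level. For Cd74, H2-Ab1 and H2-Aa this was 3.29, 3.39 and 4 times. With H2-Eb1 left out of the mean, 4 of the 10 genes stayed.

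Cxcl12 had 90.3, 114.1, 151.1, 71.2 and 67.2 CPM in the juveniles and 644.8, 192.2, 675.5 and 870.4 CPM in the adults. As for Cd74 and H2-Ab1, juvenile 3 was the highest juvenile library and adult 2 the lowest adult one. Apoe had 113.8, 116.8, 146, 167.1 and 75.0 CPM and 1047, 212.9, 735 and 1027 CPM, with adult 2 again the lowest of the adults. Over 11 other settings, each with a library left out, another prior count or another reference, Cxcl12 and Apoe stayed among the 10 in all 11 and Ltc4s in 10, while each of the others stayed in at most 6. Genes with a difference between the ages of the same size are favoured by this measure, and 9 libraries of 2 ages do not separate a shared pattern within an age from the difference itself.

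**Figure D5:**
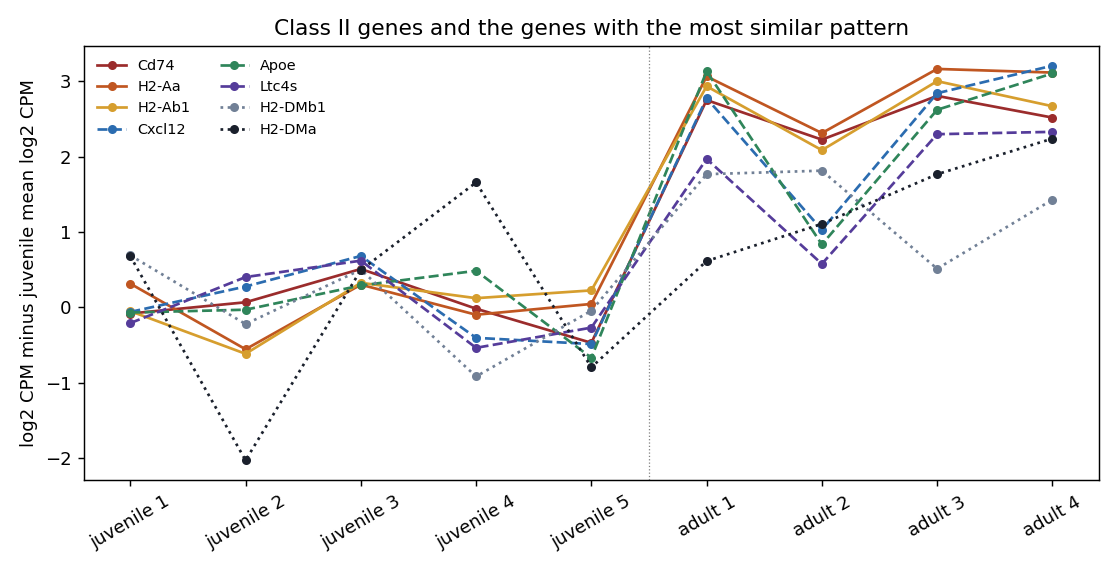
Log2 CPM of 8 genes minus their mean over the juvenile libraries, in each of the 5 juvenile and 4 adult libraries, with lines that only join the points of a gene. Cd74, H2-Aa and H2-Ab1 (solid) stand higher in the adults, as do Cxcl12, Apoe and Ltc4s (dashed), which are lower than the solid lines in adult 2, and H2-DMb1 and H2-DMa (dotted) depart from them.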

How the data were processed

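RNA of laser-microdissected OF capillaries, about 50 pieces a sample, was amplified by the authors with SMART-Seq v4 and Nextera XT and sequenced as 75-base pairs. According to the methods and the submitters' processing notes, reads were mapped to mm10 (GRCm38) with TopHat2 and Bowtie2 and counted per gene with featureCounts. The annotation release, strand setting and handling of multi-mapped reads are not given in the sources used here. The deposited values were raw counts per Ensembl gene, and the authors did not normalize them.

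Symbols, positions and exon lengths came from GENCODE M21, in which 37693 of 39179 identifiers had an entry. Groups and replicate numbers came from the labels. The adult and juvenile libraries were compared in R 4.3.3 with edgeR 4.0.16 (filterByExpr, TMM, quasi-likelihood F test, Benjamini-Hochberg over all genes tested, call at 0.05). Log2 CPM used a prior count of 2. Alternatives used DESeq2 1.42.0, the tool of the study, limma 3.58.1 voom, other scalings and filters, thinned counts, gene or library exclusions and the replicate number as a block. Same-numbered libraries came from different ages with correlations of their deviations between -0.0283 and 0.0301 over 4 pairs, and were treated as unpaired. No 2 of the 36 library pairs agreed within sampling noise. Totals of 4856833 to 8077362 counts set the precision for low genes.

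Members and lists were chosen with earlier results of these data known. Named genes were all members, list genes that were called or at 0 in every library of an age, called genes of the region, and the 10 genes most like the members with a mean normalized count of at least 100. Other list genes are named for their role in the pathway and were chosen after their values were seen. The fits were tested on simulated data. Figures used matplotlib 3.10.9 under Python 3.11.15.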

Additional observations from a re-analysis of the deposited data

Results flagged for a closer look

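Libraries that stood apart from the rest of their age were sought with Dixon's test at the 95% level for the members and the marker sums. It marked 8 of 42 groups of 4 or 5 libraries, where chance gives about 2.1 for continuous values. In 3 of the 8 every other library was at 0, so that any count sets the library apart. H2-Aa was at 134.8 CPM in adult 2 and at 227 to 243.2 CPM in the other adults. H2-Oa was at 3.75 CPM in juvenile 4 against 0 to 1.06 CPM in the other juveniles, and at 6.14 CPM in adult 4 against 0. H2-Ob was at 4.03 CPM in juvenile 2 against 0, and at 0.124 CPM in adult 3, which is 1 count, against 0. The B cell marker sum was 39.2 CPM in juvenile 2 against 0.636 to 9.36 CPM. The erythroid sum was 2555 CPM in juvenile 1 against 415.9 to 1012 CPM, and the osteoblast sum was 61180 CPM in adult 4 against 85920 to 90670 CPM.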

How the results depend on the processing

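Over 19 alternatives Cd74, H2-Aa and H2-Ab1 were called higher in the adult in each, with log2 fold changes of 2.40 to 2.71, 2.80 to 3.10 and 2.55 to 2.86. None of the 7 tested members changed direction, and H2-Eb1, H2-Oa and H2-Ob were not followed over the alternatives. H2-DMa ranged from 0.78 to 1.62, H2-DMb1 from 1.09 to 1.59, H2-DMb2 from 0.77 to 1.14 and Ciita from 0.27 to 1.72, with 15 alternatives for Ciita, which missed the filter in the others. The number of members called was 3, or 4 with H2-DMb1, with each library left out. Over all genes 520 were called, 1490 with DESeq2, 89 with the replicate block, 73 without juvenile 4 and 5, and 262 to 651 with 1 library left out. Pathway genes called were 0, and 7 with DESeq2, 1 with limma voom, 2 with at least 10 counts in every library and 0 to 3 with a library left out. Among them Spi1 was called without juvenile 1, Cst3 without juvenile 4, and Cd86, Ctss and Cxcr4 without adult 2. Other genes of the region called were 2, and 4 with DESeq2, 0 with the replicate block, 1 after thinning, 0 without juvenile 4 and 5, and 0 to 4 with a library left out. Marker genes called were 26, and 15 with at least 10 counts, 13 with the replicate block, 10 without juvenile 4 and 5, and 20 to 34 with a library left out. Fewer libraries or genes entered some of these fits, and otherwise the cause was not tested. The replicate block rests on numbers that do not pair the libraries. It left the 3 member calls in place, and 2 adult libraries correlated best with their own number. The list of most similar genes kept 3 to 8 of 10. Members with an X box were 7, and 4 at a limit of 2 mismatches. Counts near the floor of 3 limit H2-Eb1, H2-Oa, H2-Ob and Ciita.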
